A study of Mus musculus with 2 samples.

Results

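The genes described here are 10 transcripts of neutrophil granules and of the alarmin pair released by neutrophils: *S100a8*, *S100a9*, *Camp*, *Ngp*, *Ltf*, *Mpo*, *Elane*, *Retnlg*, *Mmp8* and *Chil3*. They were looked up by symbol, and all 10 were found among the 33696 genes of the deposited matrices. The data were single-cell RNA-seq of thalamic CD45+ cells from C57B6/J mice, mostly females in this study, collected 21 days after cortical ablation injury (CAI), the surgical removal of sensorimotor cortex. Both groups received the injury and antibody injections into the thalamus through a cannula, at 1.0 μg/μl from day 7 to day 19, and differed in the antibody: a control antibody (control Ab, normal rat IgG) or a rat antibody against the tetraspanin CD9 (anti-CD9 Ab, clone KMC8). There was 1 library per antibody and no uninjured library, so that antibody, pool of mice and library cannot be told apart, no test was possible, and all intervals below are 95% intervals for counting error only. The methods give a pool of 4 mice for the thalamus without repeating it for the antibody groups. The comparison asks whether the transcripts of these neutrophil proteins differed between the antibodies, and in which cells they were found.

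Neutrophils make their granules in a fixed order as they mature in the bone marrow. Primary (azurophil) granule proteins such as myeloperoxidase (*Mpo*) and neutrophil elastase (*Elane*) are transcribed in promyelocytes, secondary (specific) granule proteins such as the cathelicidin *Camp*, neutrophilic granule protein *Ngp* and the iron-binding lactoferrin *Ltf* in the myelocyte stages, and tertiary (gelatinase) granule proteins later, so that mature neutrophils leave the marrow with little mRNA of the first groups. *S100a8* and *S100a9* encode the subunits of calprotectin, a calcium- and zinc-binding alarmin that is abundant in neutrophil cytosol and a ligand of Toll-like receptor 4. *Mmp8* encodes neutrophil collagenase, *Retnlg* a resistin-like secreted protein of mature neutrophils, and *Chil3* a chitinase-like protein of myeloid precursors, monocytes and alternatively activated macrophages.

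The sequences directly upstream of *S100a8*, *S100a9*, *Camp*, *Ngp* and *Ltf* are shown because these genes form the 2 groups whose values went in opposite directions. They were taken from RefSeq for the build GRCm38.p6, are written 5′ to 3′ on the strand of the gene, and end at the first transcript start annotated by RefSeq or GENCODE (chr3:90668821-90668977, plus strand; chr3:90695722-90695971, minus strand; chr9:109849618-109849706, minus strand; chr9:110419558-110419746, plus strand; chr9:111019042-111019270, plus strand). Capitals mark matches, on either strand, to TTNNGNAAT, a C/EBP motif, or GAGGAA, a PU.1 motif, the binding sequences of factor families that act in granulocytes.
S100a8: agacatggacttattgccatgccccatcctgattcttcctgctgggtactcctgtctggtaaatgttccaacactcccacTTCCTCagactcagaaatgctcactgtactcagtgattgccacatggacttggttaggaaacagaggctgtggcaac
S100a9: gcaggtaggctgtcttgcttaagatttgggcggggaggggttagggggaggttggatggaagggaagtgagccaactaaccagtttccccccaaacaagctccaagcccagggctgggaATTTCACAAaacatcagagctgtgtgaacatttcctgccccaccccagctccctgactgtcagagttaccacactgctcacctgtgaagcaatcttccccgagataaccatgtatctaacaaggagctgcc
Camp: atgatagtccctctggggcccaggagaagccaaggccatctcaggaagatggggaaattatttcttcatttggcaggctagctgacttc
Ngp: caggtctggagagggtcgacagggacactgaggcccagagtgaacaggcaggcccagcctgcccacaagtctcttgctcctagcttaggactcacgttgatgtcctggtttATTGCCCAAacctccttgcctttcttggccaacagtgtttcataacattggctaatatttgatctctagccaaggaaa
Ltf: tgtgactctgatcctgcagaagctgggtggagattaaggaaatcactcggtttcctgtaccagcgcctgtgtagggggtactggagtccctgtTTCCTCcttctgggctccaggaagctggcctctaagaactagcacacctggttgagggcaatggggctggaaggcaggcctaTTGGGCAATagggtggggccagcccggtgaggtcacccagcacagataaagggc
The C/EBP letters were found once each upstream of *S100a9*, *Ngp* and *Ltf*, and the PU.1 letters once each upstream of *S100a8* and *Ltf*, with no overlap between motifs, while the 89 bases of *Camp* held neither. Among all 32851 promoter windows of 250 bases in the table, 10.2% held the C/EBP letters and 23.3% the PU.1 letters. At 89 bases, the length shown for *Camp*, the shares were 4.12% and 9.05%. These matches describe letters only.

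The control Ab library held 38042608 unique molecular identifiers (UMIs, single mRNA molecules) in 12245 barcodes and the anti-CD9 Ab library 40825201 in 15173. After the study's limits (200 to 7500 genes and at most 2% mitochondrial counts), 7467 and 9162 cells with 24940542 and 22664880 UMIs were kept, at medians of 1880 and 1419 UMIs. The 2 libraries shared 54 barcodes, which held 85 and 456 UMIs of *S100a8* and *S100a9* together. Cells were clustered without the 10 genes and the other granule genes and named from markers that held none of the 10. *Mmp9* is both a neutrophil marker and in the list of gelatinase granule genes. Neutrophil-like cells were 3 of 25 clusters, in which 8 to 9 of 10 neutrophil markers (such as *Csf3r*, *Cxcr2* and *Hdc*) were raised. The control library had 59 of them, 0.790% of its cells (0.602 to 1.02%), and the anti-CD9 Ab library 2722 (29.7%, 28.8 to 30.7%), a difference of 28.9 percentage points (28.0 to 29.9). Of these, 31 of the 59 control cells lay in the cluster led by *Retnlg* and *Lrg1*, and 1458 of the 2722 anti-CD9 Ab cells in the cluster led by *Cxcl2*, *Ccl4* and *Rsad2*. A cluster that comes almost wholly from 1 library may belong to that library and not to a type. This limit holds for the 3 neutrophil-like clusters, led by *Cxcl2* (15 control and 1458 anti-CD9 Ab cells), *Mmp9* (13 and 591) and *Retnlg* (31 and 673). It also holds for a cluster of 33 and 1166 cells with a median of 761 UMIs, led by *Ttr*, *Mcpt2*, *Camp* and *Ngp*. That cluster stayed unnamed because too few markers of any type were raised.

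Over all kept cells, the alarmin pair, *Retnlg*, *Mmp8* and *Chil3* were higher with anti-CD9 Ab. The specific granule genes *Camp*, *Ngp* and *Ltf* were lower, while other specific granule genes were mostly higher, as given below. *S100a8* had 3620 control UMIs and 44347 anti-CD9 Ab UMIs, or 145 and 1957 CPM (CPM, UMIs per 1000000 UMIs of the cells summed), and *S100a9* had 5530 control UMIs and 80658 anti-CD9 Ab UMIs, or 222 and 3559 CPM. The log2 ratios of anti-CD9 Ab to control Ab were 3.75 (3.70 to 3.80) and 4.0 (3.97 to 4.04), that is 13.5-fold and 16.1-fold. *Retnlg* had 491 control UMIs and 7424 anti-CD9 Ab UMIs, a log2 ratio of 4.06 (3.92 to 4.19). *Mmp8* had 104 control UMIs and 1508 anti-CD9 Ab UMIs, a log2 ratio of 4.0 (3.71 to 4.30). *Chil3* had 690 control UMIs and 5258 anti-CD9 Ab UMIs, a log2 ratio of 3.07 (2.95 to 3.18). All 5 of these values were past a log2 ratio of 1, the size used here to count a gene as higher.

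*Camp*, *Ngp* and *Ltf* went the other way, with most of their UMIs in 13 and 32 barcodes described below. *Camp* had 2081 control UMIs and 693 anti-CD9 Ab UMIs, or 83.4 and 30.6 CPM, a log2 ratio of -1.45 (-1.57 to -1.32). *Ngp* had 1542 control UMIs and 422 anti-CD9 Ab UMIs, a log2 ratio of -1.73 (-1.89 to -1.58). *Ltf* had 380 control UMIs and 189 anti-CD9 Ab UMIs, a log2 ratio of -0.87 (-1.13 to -0.61). *Mpo* and *Elane* were at 0 UMIs in the control library and at 1 and 2 UMIs in the other, at or under the floor of 3 counts. Of the 8 members with at least 50 UMIs, 5 were thus higher and 2 lower by a log2 ratio of at least 1, beside 7.41% of 15131 genes higher and 21.5% lower. The median log2 ratio was 3.41 for the 8 members and -0.37 for all these genes.

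**Figure D1:**
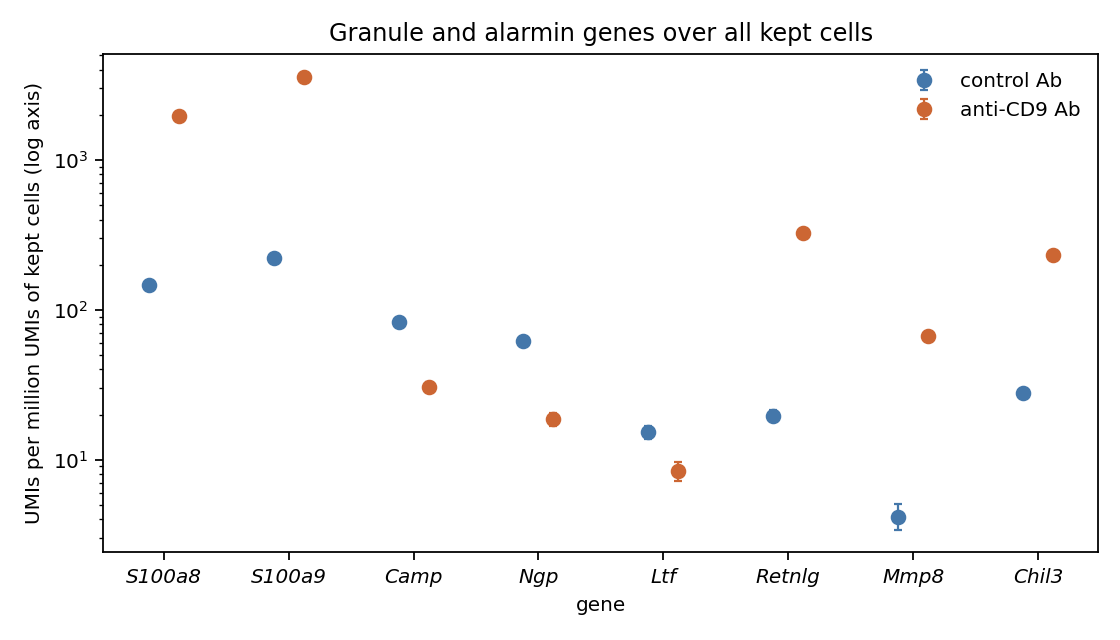
UMIs per 1000000 UMIs of all kept cells (log axis) for 8 genes, 1 point per library, with bars for the 95% Poisson interval where it is wider than the point. *S100a8*, *S100a9*, *Retnlg*, *Mmp8* and *Chil3* lie higher with anti-CD9 Ab, and *Camp*, *Ngp* and *Ltf* lie lower.

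The UMIs of *Camp*, *Ngp* and *Ltf* came from very few barcodes. With control Ab, the 10 barcodes richest in each gene held 97.2% of the *Camp* UMIs, 96.7% of the *Ngp* UMIs and 97.1% of the *Ltf* UMIs. The alarmin genes of that library were concentrated too, with 63.6% of *S100a8* UMIs in 10 barcodes, whereas with anti-CD9 Ab the same number of barcodes held 3.02%. To collect 50% of the *S100a8* UMIs took 7 control and 447 anti-CD9 Ab barcodes. For *Camp* it took 4 and 8, so that its UMIs stayed concentrated in both libraries. With anti-CD9 Ab, 1 barcode held 245 of the 693 *Camp* UMIs and 142 of the 422 *Ngp* UMIs.

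**Figure D2:**
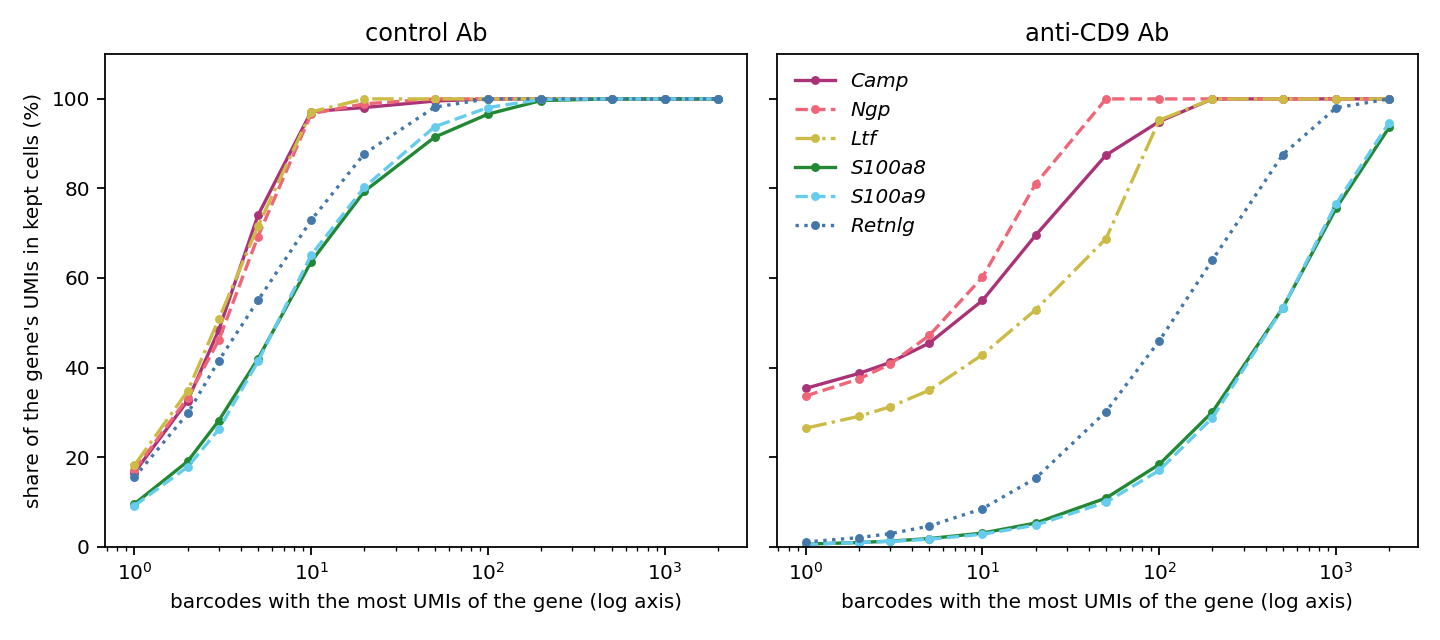
Share of a gene's UMIs in kept cells (%) held by the barcodes with the most UMIs of that gene (number of barcodes, log axis), for control Ab (left) and anti-CD9 Ab (right). With control Ab the curves of *Camp*, *Ngp* and *Ltf* reach 97.2%, 96.7% and 97.1% at 10 barcodes, and with anti-CD9 Ab those of *S100a8* and *S100a9* are the slowest to rise.

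Barcodes with at least 5 UMIs of *Camp*, *Ngp* and *Ltf* together were therefore looked at one by one. The limit was set after the values were seen: with control Ab, 75 barcodes held 1 or 2 such UMIs, 13 held at least 10 and none lay between, and with anti-CD9 Ab 16 held 3 or 4 and 2 held 5 to 9. These specific granule barcodes numbered 13 in the control library and 32 in the other, or 0.174% and 0.349% of the barcodes kept. The 13 held 98.0% of the control library's *Camp*, *Ngp* and *Ltf* UMIs, and the 32 held 80.1% of those with anti-CD9 Ab. The same 13 barcodes held 68.0% of all *S100a8* and 70.0% of all *S100a9* UMIs of the control library, against 1.79% and 1.52% for the 32. Thus the library with fewer such UMIs had more such barcodes, and the barcodes differed in depth, with medians of 3616 UMIs for control Ab and 691 for anti-CD9 Ab.

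The specific granule barcodes were picked for UMIs of *Camp*, *Ngp* and *Ltf*, so that their levels of these genes are given as a description. The 3 control barcodes with over 10000 UMIs held 68.8% of the 13 barcodes' UMIs and weigh most in the control levels. *Camp* was at 19958 (control) and 20698 (anti-CD9 Ab) CPM, *Ngp* at 14889.6 and 15009, and *Ltf* at 3693 and 3406. *S100a8* was at 24161 and 29756 CPM there, and *Chil3* at 2740.2 and 4267. Other granule transcripts, picked for naming after their values were seen, were found in the same barcodes, with lipocalin 2 (*Lcn2*) at 7062 and 10742 CPM and ficolin B (*Fcnb*) at 157 and 374, while *Mpo* and *Elane* were at 0 UMIs in all 45. Several genes were lower in the 32 barcodes. *Retnlg* was at 1169 and 262 CPM, *Mmp8* at 550 and 112, *Ly6g* at 481 and 74.9, *Mmp9* at 196 and 37.4, and *Cebpe* at 275 and 37.4. The anti-CD9 Ab values of these genes rest on 7, 3, 2, 1 and 1 UMIs. The control values were uneven too. Of the 119 control *Retnlg* UMIs, 58 and 30 lay in the barcodes with the fewest *Camp*, *Ngp* and *Ltf* UMIs (12 and 11). Of the 56 control *Mmp8* UMIs, 21 lay in 1 barcode. The chemokine receptor *Cxcr2*, which mature neutrophils carry, had 5 UMIs in the 13 and 0 in the 32. By cluster, 6 of the 13 control barcodes were neutrophil-like, 2 lay in the unnamed cluster led by *Ttr* and *Mcpt2*, and 5 elsewhere, 1 of them among cycling T cell-like cells without a *Cd3e* UMI. Of the 32 with anti-CD9 Ab, 5 were neutrophil-like and 25 lay in that unnamed cluster. The 3 control barcodes with over 10000 UMIs held 6 to 11 UMIs of the microglia gene *P2ry12* each, and 2 barcodes of each library were predicted doublets.

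**Figure D3:**
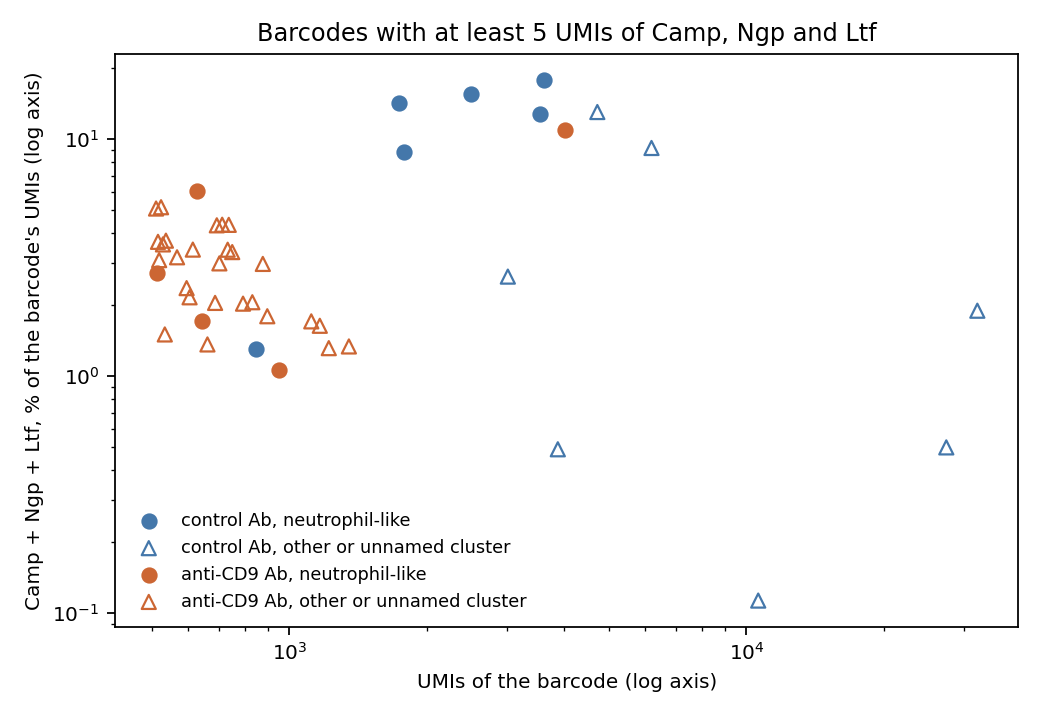
Share of a barcode's UMIs that were *Camp*, *Ngp* or *Ltf* (%, log axis) against the barcode's UMIs (log axis), for the 13 control Ab and 32 anti-CD9 Ab barcodes with at least 5 such UMIs; filled circles are neutrophil-like cells and open triangles all others. The 6 control Ab circles lie between 1.30% and 17.7%, and most anti-CD9 Ab points are triangles under 1000 UMIs.

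Without the specific granule barcodes, few UMIs of the 3 genes were left in the control library. The barcodes were picked for these genes at 5 UMIs in both libraries, although their median depths were 3616 and 691 UMIs, so that no direction for the 3 genes is read from what remained. *Camp* then had 49 control UMIs and 140 anti-CD9 Ab UMIs, a log2 ratio of 1.65 (1.17 to 2.15), and *Ltf* had 4 control UMIs and 98 anti-CD9 Ab UMIs, a log2 ratio of 4.75 (3.35 to 6.65). *Ngp* had 26 control UMIs and 21 anti-CD9 Ab UMIs, a log2 ratio of -0.17 (-1.08 to 0.71), whose interval spans 0. The alarmin ratios became larger, at 5.36 (5.28 to 5.45) for *S100a8* and 5.72 (5.65 to 5.79) for *S100a9*. *Ngp* then no longer passed the limit of 50 UMIs over both libraries. The 5 members not used to pick the barcodes were all higher by a log2 ratio of at least 1, beside 7.48% of all genes higher and 21.6% lower. The remaining low counts of the 3 genes did not keep the proportions seen in the specific granule barcodes. In the neutrophil-like cluster led by *Cxcl2* and in an unnamed cluster led by *Gdf15* and *Hilpda* (3 and 768 cells), anti-CD9 Ab cells held 41 and 34 UMIs of *Camp* and 33 and 31 of *Ltf*, but 6 and 0 of *Ngp*.

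Over all neutrophil-like cells summed together, the members' levels were not raised with anti-CD9 Ab. *S100a8* was at 29026 CPM in the 59 control Ab cells and 11079 in the 2722 anti-CD9 Ab cells, a log2 ratio of -1.39 (-1.46 to -1.32). *S100a9* was at 46858 and 20573 CPM, a log2 ratio of -1.19 (-1.24 to -1.13). All 8 members measured in these cells were lower by a log2 ratio of at least 1, beside 20.1% of 5419 genes. *Camp*, *Ngp* and *Ltf* differed most, at log2 ratios of -7.28, -7.92 and -6.51, from 944, 781 and 169 UMIs in 59 control cells. *Chil3* was at 1942 and 140.2 CPM, a log2 ratio of -3.79 (-4.09 to -3.48).

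Most of that difference lay in 6 control cells. Specific granule barcodes were 6 of the 59 control neutrophil-like cells (10.2%, 3.82 to 20.8%) and 5 of the 2722 under anti-CD9 Ab (0.184%, 0.0597 to 0.428%). Without them, *S100a8* and *S100a9* together were at 31910 CPM in 53 control cells and 31406 in 2717 anti-CD9 Ab cells, against 75884 and 31652 with them. The log2 ratio of the pair went from -1.26 (-1.30 to -1.22) to -0.023 (-0.098 to 0.053). For the single genes it was -0.16 (-0.28 to -0.037) for *S100a8* and 0.057 (-0.039 to 0.15) for *S100a9*. *Chil3* was left with 3 control UMIs and 417 anti-CD9 Ab UMIs, a log2 ratio of 0.91 (-0.65 to 3.19), and *Mmp8* with 7 and 914, 0.82 (-0.23 to 2.14), so that neither could be told from 0 at this depth. *Ngp* and *Ltf* no longer passed the limit of 50 UMIs. *Camp* had 0 and 62 UMIs, a level under the floor of 3 control counts, for which no fold is given. Of the other 5 members, 0 were higher and 1 (*Retnlg*) lower by a log2 ratio of at least 1, beside 21.2% and 23% of genes.

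The cell-by-cell values of the pair overlapped between the libraries. Per 10000 UMIs of a cell, *S100a8* and *S100a9* together ranged from 0 to 2486 with a median of 165 in the control Ab cells, and from 0 to 2105 with a median of 176 in the anti-CD9 Ab cells. The lower quartiles were 53.1 (control Ab) and 30.2 (anti-CD9 Ab), and the upper quartiles 625 and 468. Both quartiles were thus higher in the control Ab cells, while the medians lay close together. After each cell was thinned to 500 UMIs, 76.3% (63.4 to 86.4%) of control Ab and 71.1% (69.4 to 72.8%) of anti-CD9 Ab neutrophil-like cells had a UMI of *S100a8* (88.1% and 79.6% unthinned). For *Camp*, *Ngp* or *Ltf*, the thinned shares were 13.6% (6.04 to 24.98%) and 1.80% (1.33 to 2.37%), and in T cell-like cells, which should lack them, 0.250% and 0 of 977, for which the exact interval reaches 0.377% of cells with a UMI (0.751% and 0.716% unthinned). Median depths were 830 and 1164 UMIs for the neutrophil-like cells, and predicted doublets were 0% and 7.57% of them.

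**Figure D4:**
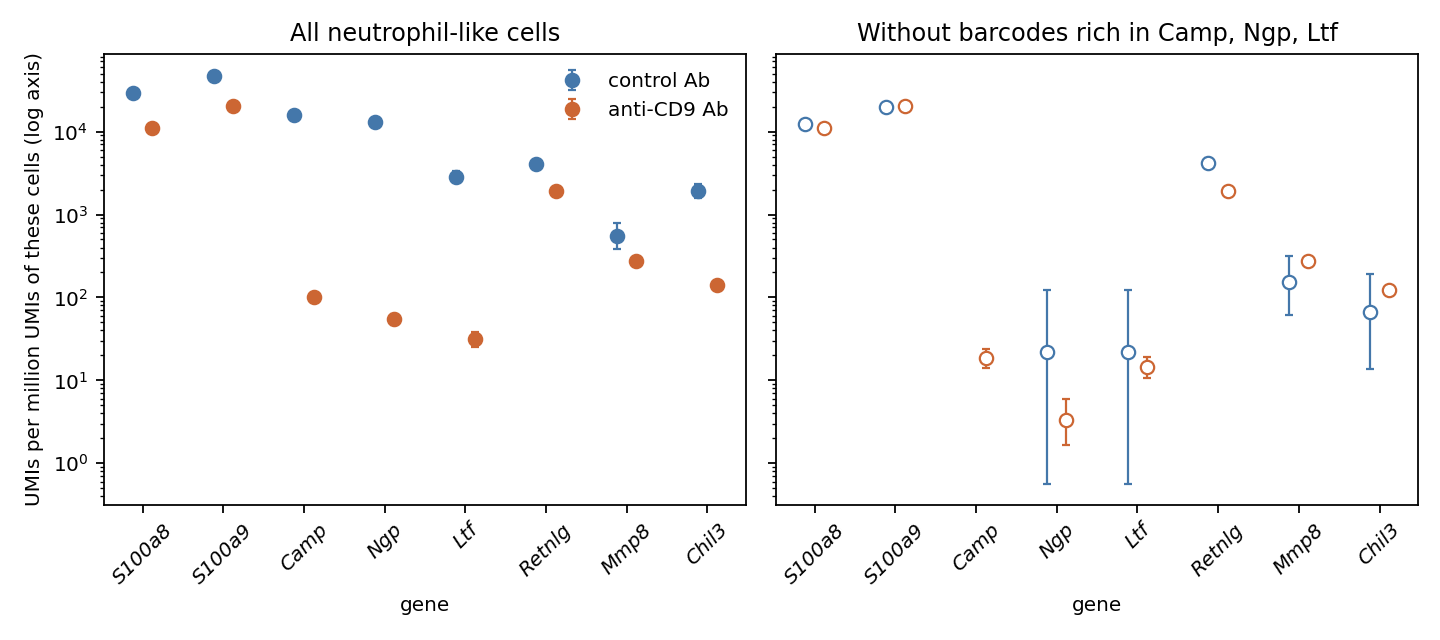
UMIs per 1000000 UMIs of neutrophil-like cells (log axis) with 95% Poisson intervals, for all 59 control Ab and 2722 anti-CD9 Ab cells (left) and without the 6 and 5 specific granule barcodes (right); genes at 0 UMIs have no point. The *S100a8* and *S100a9* points of the libraries lie apart on the left and nearly coincide on the right, and *Retnlg* stays lower with anti-CD9 Ab on both sides.

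The neutrophil-like clusters differed in their levels and in their shares of the libraries. With anti-CD9 Ab, *S100a8* was at 21299.6 CPM in the cluster led by *Retnlg* and *Lrg1*, 7789.6 in that led by *Cxcl2* and *Ccl4*, and 8413 in that led by *Mmp9*. *Retnlg* was at 5477, 1066 and 90.2 CPM, and *Mmp8* at 821, 106 and 104. The first cluster thus had the highest level of all 3 genes. Between the antibodies within the *Cxcl2* cluster (15 and 1458 cells), the log2 ratio of *S100a8* was 0.20 (-0.093 to 0.51) and that of *S100a9* 0.51 (0.28 to 0.75). Within the *Mmp9* cluster (13 and 591 cells) they were 0.60 (0.24 to 0.99) and 0.14 (-0.12 to 0.42). Within the *Retnlg* cluster (31 and 673 cells) they were -1.09 (-1.17 to -1.02) and -0.88 (-0.94 to -0.82), and 0.12 (-0.028 to 0.26) and 0.38 (0.26 to 0.49) without the specific granule barcodes. The fall of the pair was thus present within 1 of the 3 clusters, and there only with those barcodes. Without them, *Mmp8* in the *Retnlg* cluster had 6 control and 644 anti-CD9 Ab UMIs, a log2 ratio of 1.48 (0.35 to 2.93). The *Retnlg* values of this cluster are given below. The values over all neutrophil-like cells thus mix clusters of unlike levels in unlike shares, and the part of this mixture was not tested.

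*Retnlg*, the resistin-like gene of mature neutrophils, was at 4036 and 1929 CPM in neutrophil-like cells, a log2 ratio of -1.06 (-1.25 to -0.87), and of -1.12 (-1.33 to -0.91) without the specific granule barcodes. A single control cell held 70 of the 239 control UMIs, and without the richest cell of each library the log2 ratio was -0.61. Within the *Retnlg* cluster the log2 ratio was -0.24 (-0.44 to -0.041), and -0.64 (-0.86 to -0.41) without the specific granule barcodes. Of the 174 control UMIs left there, 70 lay in 1 cell. Without the richest cell of each library as well, the levels were 5366 (control Ab) and 5391 (anti-CD9 Ab) CPM. No direction is therefore read from the *Retnlg* cluster. Within the *Cxcl2* cluster the log2 ratio was 0.40 (-0.44 to 1.40), an interval that spans 0, and within the *Mmp9* cluster -2.31 (-3.62 to -0.63). All control *Retnlg* UMIs of the *Mmp9* cluster lay in 1 of its 13 control cells (7.69%). The counting interval does not cover such a spread between cells, so that no direction is read from this cluster. A *Retnlg* UMI was found in 20 of the 53 other control cells and 866 of the 2717 other anti-CD9 Ab cells (37.7% and 31.9%). Neutrophil-like cells held 87.1% of the anti-CD9 Ab library's *Retnlg* UMIs, 83.7% of *S100a8* and 85.5% of *S100a9*, but 60.8% of *Mmp8* and 8.94% of *Chil3*. The last 2 genes thus had other large sources.

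In the anti-CD9 Ab library, *Chil3* was highest in monocyte-like cells and in an unnamed myeloid group beside them, and in the control Ab library among the named types in neutrophil-like cells. That control rank came from the specific granule barcodes. Without them *Chil3* was at 66.3 CPM (3 UMIs) in control neutrophil-like cells, under the 529 CPM of monocyte-like and 223 CPM of macrophage-like cells. There were 16 control and 170 anti-CD9 Ab monocyte-like cells, with 7 of 8 monocyte markers such as *Ccr2*, *Plac8* and *Ifitm6* raised, and *Chil3* had 27 control UMIs and 1387 anti-CD9 Ab UMIs in them. This was 529 and 1994 CPM, a log2 ratio of 1.91 (1.37 to 2.52). The 27 control UMIs lay in 4 of the 16 cells, 14 of them in 1 cell, and 113 of 170 anti-CD9 Ab cells had a UMI. With cells named one by one from their own markers in place of clusters (32 and 632 cells), the log2 ratio of *Chil3* was 0.059 and that of the alarmin pair -3.44. *Mmp8* had 1 and 52 UMIs in monocyte-like cells, and *S100a8* and *S100a9* together 0 and 106, a log2 ratio of at least 1.37 against a floor of 3 counts over the group, with 53 of the 106 UMIs in 1 barcode. *Camp*, *Ngp* and *Ltf* were at 0 UMIs in both. Of the 3 members measured in monocyte-like cells, *S100a9* was at 0 control UMIs, *Mmp8* at 1, with an interval from -0.61 to 7.26, and *Chil3* was higher by a log2 ratio of at least 1, as were 14.8% of 2735 genes. An unnamed group of 2 and 162 cells had 6 of 8 monocyte markers raised. Its leading genes held the neutrophil marker *Mxd1* but no monocyte marker, and also *S100a8*, *S100a9* and *Retnlg*. With anti-CD9 Ab it held 1620 *Chil3* UMIs (2294 CPM) together with 1323 of *S100a9*. Predicted doublets were 45.1% of its cells, and their part was not tested.

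Macrophage-like cells (118 and 626, named through their parent cluster with 6 of 8 macrophage markers raised) differed in make-up between the libraries, with 101 of the 118 control cells in the group led by *Spp1* and *Gpnmb*, which held 171 of the 626. They carried *Chil3* at 224 and 285 CPM, a log2 ratio of 0.34 (0.10 to 0.60), and 51 of the 157 control UMIs lay in 1 cell. *Mmp8*, the collagenase, had 10 control UMIs and 245 anti-CD9 Ab UMIs, a log2 ratio of 2.27 (1.37 to 3.35), and 16.2% of the anti-CD9 Ab library's *Mmp8* UMIs lay in these cells. Its level there was 25.2% of that in neutrophil-like cells, against 1.07% for *S100a8* and 0.365% for *S100a9*. The balance of the alarmin pair differed as well. *S100a8* was 61.2% (57.4 to 64.9%) of the pair's UMIs in macrophage-like cells with anti-CD9 Ab, and 35.0% (34.7 to 35.3%) in neutrophil-like cells. It reached 69.7% (64.1 to 74.9%, 205 and 89 UMIs) in the macrophage-like group led by *Saa3*, *Arg1* and *Nos2* (2 and 255 cells), which also held 186 of the 245 *Mmp8* UMIs. Macrophage-like cells were thus the 1 named type with more *S100a8* than *S100a9* UMIs in that library. Of the 6 members measured in them, 1 was higher and 3 lower by a log2 ratio of at least 1, beside 12.2% and 5.14% of 7348 genes, and the 3 lower (*S100a9*, *Camp* and *Ngp*) took 155 of 168, 60 of 60 and 55 of 55 control UMIs from 1 specific granule barcode. Predicted doublets were 0.847% and 21.2% of macrophage-like cells, and their part in these values was not tested.

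In cell types that should lack neutrophil genes, the alarmin pair was found at lower levels than in neutrophil-like cells, up to 3661 CPM in oligodendrocyte-like cells with anti-CD9 Ab. These were higher with anti-CD9 Ab except in T cell-like cells, where the direction depended on the settings. In droplet data such UMIs can come from free RNA taken up with the cells. In microglia-like cells (1947 and 863), *S100a8* and *S100a9* together were at 73.2 and 549.8 CPM, a log2 ratio of 2.91 (2.79 to 3.03). These levels were 0.0964% and 1.74% of those in neutrophil-like cells. The control share is low partly because its base, 75884 CPM, includes the specific granule barcodes. Without them the base was 31910 CPM, while the control microglia-like level stayed at 73.2 CPM. Of the 4 members measured there, all were higher by a log2 ratio of at least 1, beside 3.2% of 11157 genes higher and 4.39% lower, although 76 of the 108 control *Retnlg* UMIs lay in 1 barcode. In T cell-like cells (2796 and 977), the pair was at 150.0 and 169.8 CPM, a log2 ratio of 0.18 (0.0077 to 0.35). Here 623 of the 726 control UMIs came from the 1 specific granule barcode in the cycling T cell-like cluster, and without it the values were 21.3 and 169.8 CPM, a log2 ratio of 2.99 (2.68 to 3.32). With that barcode, 0 of 6 members measured were higher and 2 lower by a log2 ratio of at least 1, beside 3.24% and 2.54% of 9720 genes. The log2 ratio of the pair in T cell-like cells went from -0.70 without predicted doublets to 5.37 with cells named one by one, and its direction is therefore not given. The setting without predicted doublets kept the specific granule barcode and held 676 control and 234 anti-CD9 Ab UMIs of the pair.

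The level of the pair outside neutrophil-like cells varied between types. Without the specific granule barcodes it was at 4.83 and 536 CPM in conventional dendritic cell-like cells, 293 and 937 CPM in B cell-like cells, 2.02 and 215 CPM in plasma cell-like cells, 43.0 and 3661 CPM in oligodendrocyte-like cells and 32.0 and 931 CPM in astrocyte-like cells, higher with anti-CD9 Ab in every one. The control values of the dendritic and plasma cell-like cells rest on 3 UMIs each, and 63 of the 83 anti-CD9 Ab UMIs of the astrocyte-like cells lay in 1 barcode. The other types were concentrated too. With anti-CD9 Ab, the 10 richest barcodes held 93.2% of the pair's UMIs in oligodendrocyte-like and 84.4% in B cell-like cells. They held 82.2% in plasma cell-like and 66.5% in dendritic cell-like cells. In control oligodendrocyte-like cells, 20 of the 24 UMIs lay in 1 barcode. After thinning to 500 UMIs per cell, the share of cells with a *S100a8* UMI was 0.976% in the control and 4.75% in the anti-CD9 Ab library in microglia-like cells. It was 0.429% in the control and 3.38% in the anti-CD9 Ab library in T cell-like cells. In oligodendrocyte-like cells it was 1 of 301, or 0.332% (0.00841 to 1.84%), and 12 of 97, or 12.4% (6.56 to 20.6%). Unthinned, the anti-CD9 Ab shares were 12.6% in microglia-like, 9.11% in T cell-like and 20.6% in oligodendrocyte-like cells, and 20.6% of the last were predicted doublets, whose part was not tested. With anti-CD9 Ab, *S100a8* made up 37.5% (35.2 to 39.9%) of the pair in microglia-like and 36.6% (32.2 to 41.2%) in T cell-like cells. It made up 38.8% (34.0 to 43.7%) in oligodendrocyte-like and 35.0% (34.7 to 35.3%) in neutrophil-like cells. The source of these UMIs was not tested. *Camp*, *Ngp* and *Ltf* had 10 UMIs in all microglia-like and 8 in all T cell-like cells of that library.

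**Figure D5:**
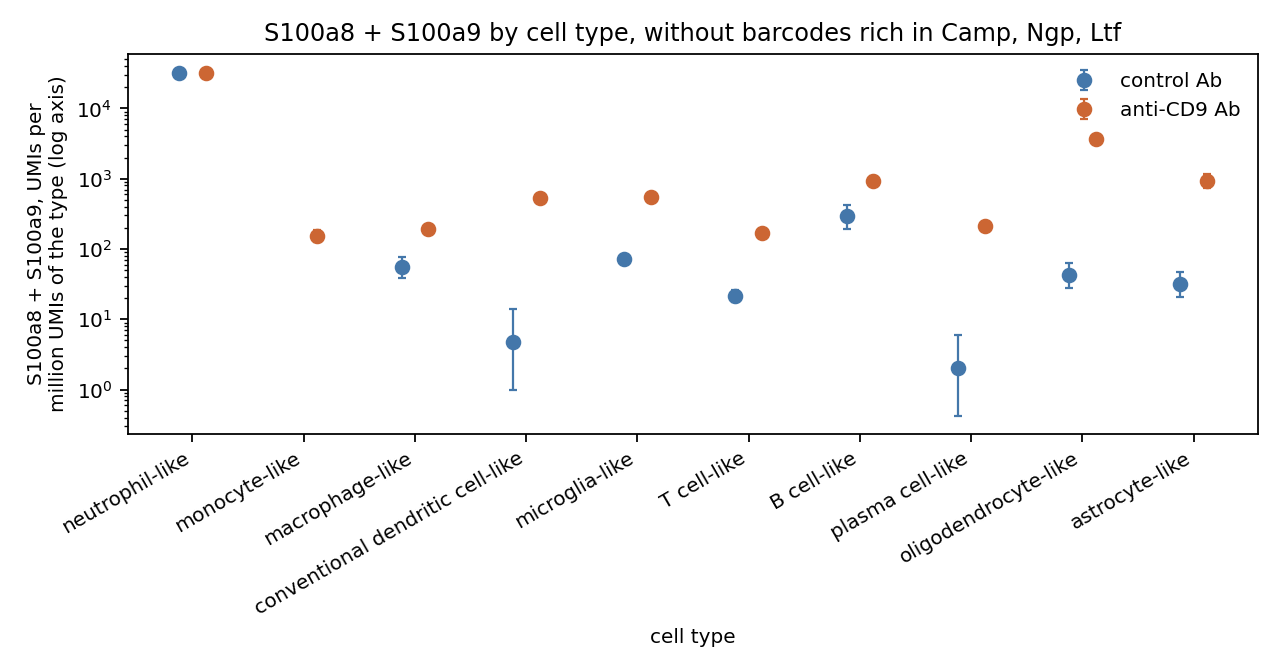
*S100a8* plus *S100a9* in UMIs per 1000000 UMIs of each cell type (log axis), 1 point per library with 95% Poisson intervals, without the specific granule barcodes; the monocyte-like control point is at 0 UMIs and not drawn. The points of both libraries coincide in neutrophil-like cells, and in every other type drawn the anti-CD9 Ab point lies above the control Ab point.

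*Mpo* and *Elane*, the primary granule genes, were almost only seen outside the kept cells. All 54 *Mpo* and 77 *Elane* UMIs of the control Ab library lay in 3 barcodes above the limit of 2% mitochondrial counts, at 4.73%, 4.48% and 2.02%. The first held 49 and 67 UMIs, the second 2 and 10, and the third 3 and 0. These barcodes also held 93, 20 and 11 UMIs of proteinase 3 (*Prtn3*) and 61, 11 and 8 of cathepsin G (*Ctsg*), further azurophil granule enzymes, and 0 UMIs of *S100a8*, *S100a9*, *Camp*, *Ngp* and *Ltf*. The anti-CD9 Ab library held 1 *Mpo* and 4 *Elane* UMIs over all its barcodes. The study's limits on genes and mitochondrial counts together removed 43.8% of the *Chil3* UMIs of the anti-CD9 Ab library and 16.9% with control Ab. They removed 8.51% and 6.51% of the *S100a8* UMIs, and 44.5% and 34.4% of all UMIs.

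Other genes of the same granules were counted over all kept cells by the same size of at least 1 on the log2 scale, which 7.41% of all genes passed upwards and 21.5% downwards. Of the other specific granule genes, 5 of 6 measured were higher, such as *Lcn2* (1020 and 32806 UMIs, log2 ratio 5.15), which binds bacterial siderophores, *Cybb* (3163 and 14285 UMIs, log2 ratio 2.31), the catalytic subunit of the phagocyte oxidase, and *Hp* (564 and 8103 UMIs, log2 ratio 3.98), haptoglobin. Of the gelatinase granule and secretory vesicle genes, 6 of 8 were higher, among them the formyl peptide receptors *Fpr1* (49 and 3006 UMIs, log2 ratio 6.08) and *Fpr2* (69 and 2939 UMIs, log2 ratio 5.55), while *Slc11a1* (1859 and 2534 UMIs, log2 ratio 0.58) was not past the size. All 5 stefins found, cysteine protease inhibitors, were higher, such as *Cstdc4* (26 and 3117 UMIs, log2 ratio 7.04). The 1 other azurophil granule gene measured in the kept cells was *Prtn3* (20 and 116 UMIs, log2 ratio 2.67). In neutrophil-like cells it had 0 control and 15 anti-CD9 Ab UMIs, too few to be measured. The mitochondrial limit removed control barcodes with 93, 20 and 11 *Prtn3* UMIs. Over all barcodes, 2 genes of this list were measured, 0 higher and 1 lower, with a median log2 ratio of -0.99. No direction is therefore read from *Prtn3*. Among the factors that act in granulocytes, 2 of 7 were higher, with *Cebpb* (3572 and 33439 UMIs, log2 ratio 3.36), *Runx1* (14337 and 11143 UMIs, log2 ratio -0.23) and *Spi1* (5478 and 7556 UMIs, log2 ratio 0.60). Of the receptors and partners of the members, 3 of 10 were higher, with the endotoxin co-receptor *Cd14* (4193 and 17912 UMIs, log2 ratio 2.23) but *Bsg* (9118 and 7799 UMIs, log2 ratio -0.087), a receptor of *S100a9*, near 0. Of 7 inhibitors, 2 were higher, such as *Slpi* (8933 and 48548 UMIs, log2 ratio 2.58), an inhibitor of elastase, and 2 lower, such as *Timp2* (19947 and 4133 UMIs, log2 ratio -2.13). Of the relatives of the members, 2 of 5 were higher, *S100a6* (7241 and 13605 UMIs, log2 ratio 1.05) and *S100a11* (3705 and 14711 UMIs, log2 ratio 2.13). Red cell genes were in 0 of 5 cases past the size, platelet genes lower in 1 of 1, cycling genes higher in 6 of 8, the neutrophil markers higher in 9 of 10 and the monocyte markers in 7 of 8.

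Within neutrophil-like cells the same lists were split. Of the other specific granule genes, 1 of 5 measured was higher and 0 lower, with *Lcn2* (7514 and 5994 CPM) and *Hp* (794 and 657 CPM) past the size in neither direction. Of the 445 control *Lcn2* UMIs, 395 lay in the 6 specific granule barcodes. Without those barcodes 4 of 5 were higher, beside 21.2% of all genes higher and 23% lower, with a median log2 ratio of 2.04 against -0.24 with them. The barcodes were picked for specific granule genes, so that no direction is read from this change. Of the gelatinase granule and secretory vesicle genes, 5 of 8 were higher, such as *Fpr1* (50.7 and 434 CPM), and 1 lower, the peptidoglycan-binding *Pglyrp1* (1503 and 372 CPM). Stefins were higher in 3 of 5. Of the receptors, 4 of 9 were higher, such as *Cd14* (169 and 3032 CPM). Among the transcription factors, *Cebpb* (1081 and 4562 CPM) was higher, and *Cebpe*, the factor of the specific granule stages, named after its values were seen, was found with 8 and 26 UMIs, all 8 of the control UMIs in specific granule barcodes (135 and 7.76 CPM). The share of all 5419 genes past the size in these cells was 21.4% higher and 20.1% lower.

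The genes most like each member were found from the Pearson correlation of log2(CPM + 20) over 16 groups of cell type and library, among 11835 genes, as a description without a test. Only groups with at least 100000 UMIs were used, and they share 2 libraries. Neutrophil-like cells are 1 of the 16, with anti-CD9 Ab, because those with control Ab held 59222 UMIs. *S100a8* was closest to *S100a9* (0.986), *Hdc* (0.944), *G0s2* (0.936), the last 2 being neutrophil markers used for the names. *Camp* was closest to *Ngp* (0.981), *Ltf* (0.855), *Napa* (0.734), and *Ltf* to *Ngp* (0.876), *Camp* (0.855), *Klhdc4* (0.827), so that the specific granule genes were closest to each other. *Retnlg* was closest to *Asprv1* (0.980), *Cstdc4* (0.979), *Il36g* (0.973), *Mmp8* to *Mefv* (0.982), *Tarm1* (0.964), *Sirpb1b* (0.938), and *Chil3* to *Tfec* (0.952), *Mgst1* (0.950), *Dpep2* (0.947). Only 3 of 11835 genes were named per member, so that a lack of overlap between members is not read as a result. The values of *Camp*, *Ngp* and *Ltf* in some groups rest on single specific granule barcodes. In control T cell-like cells 1 barcode held 613 of their UMIs, beside 21 in all others. In control macrophage-like cells 1 barcode held 137, beside 0 in all others.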

How the data were processed

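Single-cell libraries (10x Genomics 3′, v3.1) of live CD45+ thalamic cells, 1 per antibody, were deposited as raw UMI counts per gene and barcode. The authors made the counts with Cell Ranger, given as 8.0.0 with GRCm39 in the submitters' processing notes, and no normalization was applied to the deposited counts. The study's limits on cells were applied (200 to 7500 genes, at most 2% mitochondrial counts). Libraries were integrated and clustered in Seurat 5.3.0 (R 4.3.3) on 2000 variable genes and 30 principal components at a resolution of 0.8, without the members and other granule genes, 42 in all. Clusters were named from at least 3 raised markers and 50% of a type's list, myeloid clusters were clustered again, and simulated doublets marked cells without removing them. Counts were summed per type and library and divided by the total of the same cells (CPM) in Python 3.11.15 with scipy 1.17.1.

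Exact Poisson and binomial (Clopper-Pearson) 95% intervals cover counting error only, since mice within a library cannot be told apart, and no test was made. Genes with at least 50 UMIs were counted by direction at a log2 ratio of 1. Shares of cells with a UMI were taken after 1 random thinning to 500 UMIs, drawn separately for each gene and each sum of genes. The statistics were tested on simulated data. All 10 members were named, with the 3 genes most like each member of at least 200 UMIs, and at most 3 genes of each list, those with the most UMIs. The members and lists were chosen with earlier results of these data known. Upstream sequences came from RefSeq, GRCm38.p6, another build than that of the counts.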

Additional observations from a re-analysis of the deposited data

Results flagged for a closer look

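In the control Ab barcodes removed by the mitochondrial limit, *Mpo* had 54 and *Elane* 77 UMIs, against 0 of each in the kept cells. In the removed anti-CD9 Ab barcodes *Chil3* had 4094 UMIs, beside 140 in the removed control Ab barcodes. These 3 values came up because they lie in barcodes that the comparisons do not use, and their cause was not tested.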

How the results depend on the processing

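Of 76 values under alternative settings, 35 stayed within the counting interval of the reported value (or, for the count of members, within 1.5 times it), 38 moved beyond it and 3 turned in direction. Leaving out the specific granule barcodes or the barcode with the most UMIs, dropping all limits on cells, and the ratio of *Camp*, *Ngp* and *Ltf* together were added after seeing the data. Over all kept cells, the log2 ratio of *S100a8* plus *S100a9* (3.91) was 3.69 at a limit of 5% mitochondrial counts, 3.70 with no limit on cells, 3.87 without doublets, 5.58 without the specific granule barcodes and 4.04 without the richest barcode. That of *Camp*, *Ngp* and *Ltf* (-1.48) was -1.64, -1.61, -1.35, 1.85 and -1.82 in the same order. The difference in the share of neutrophil-like cells (28.9 points) was 37.2 with 20 principal components, 27.5 with all variable genes, 25.1 at 5%, 24.2 with cells named one by one and 30.5 without doublets. In these cells, the ratio of the alarmin pair (-1.26) was -1.43 with 20 components, -1.34 at 5%, -0.56 with cells named one by one, -1.39 without integration, -0.023 without the specific granule barcodes and -1.08 without the richest barcode. That of *Retnlg* (-1.06) was -1.30 with 20 components, -0.76 with all variable genes and -0.61 without the richest barcode. The difference in the share with *Camp*, *Ngp* or *Ltf* (-11.8 points) was -26.6 after thinning to 1000 UMIs. In monocyte-like cells, *Chil3* (1.91) was at 3.74 with 20 components, 1.20 with all variable genes, 2.87 with another seed, 0.059 with cells named one by one and 2.78 without the richest barcode, and the alarmin pair (at least 1.37) at 0.95 with all variable genes, -3.44 with cells named one by one and at least 0.32 without the richest barcode. In T cell-like cells the pair (0.18) was at 2.01 with 20 components, 2.59 with another seed, 0.40 at 5%, 5.37 with cells named one by one, 2.19 without integration, -0.70 without doublets, 2.99 without the specific granule barcodes and 2.88 without the richest barcode. Beyond the alternatives' own construction, the cause was not tested. Without integration no cluster was named monocyte-like or macrophage-like, because the markers tied, and no value was obtained for them. The thinned shares rest on 1 random draw for each gene or sum of genes. No paired analysis was possible because there was 1 library per antibody. The 59 neutrophil-like and 16 monocyte-like control cells limit every value within these types.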
